A study of Mus musculus with 5 samples.

Results

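The 37 genes described here take glucose and amino acids into the cell, carry glucose through glycolysis to pyruvate and lactate, regulate these steps, or make and use 2-oxoglutarate. They were chosen by symbol for these roles, with earlier results of these data known. All 37 were found among the 55487 genes of the count tables, and all 37 were among the 13525 genes that passed a filter on low counts and entered the comparison of genotypes. The RNA came from CD4 SP cells, thymocytes that have kept CD4 and lost CD8. They were sorted as live CD24 low, CD4+, TCRβ+ and CD8- cells that did not bind the CD1d tetramer used to mark iNKT cells. Libraries were made from 3 wild type (WT) C57BL/6J mice and from 2 C57BL/6J mice of the genotype *Tet2*-/-*Tet3*flx/flxCD4cre (*Tet2/3* DKO), 1 library per mouse, by the SMART-seq method for small amounts of RNA. The study's methods give the mice as 21 to 30 days old. In the *Tet2/3* DKO mice *Tet2* is mutated in every cell of the body, whereas *Tet3* is removed where CD4cre is active, from the double-positive thymocyte stage on. The labels list no floxed allele and no Cre for the WT mice.

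Glycolysis splits glucose into pyruvate in the cytosol and yields ATP and building blocks. Resting T cells run it at a low rate and feed pyruvate to the mitochondria, whereas activated T cells take up more glucose and glutamine, under the control of MYC, HIF-1α and the mTOR complex, and release much of the carbon as lactate. The citric acid cycle and the isocitrate dehydrogenases make 2-oxoglutarate, which TET2 and TET3 consume together with oxygen when they oxidize 5-methylcytosine. Succinate, fumarate and 2-hydroxyglutarate resemble 2-oxoglutarate and can compete with it in such enzymes. Transcript levels are measured here, and neither metabolites nor enzyme activity.

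Between 17607089 and 27267031 reads per library were counted on genes. *Tet3*, the floxed gene, had between 43.8 and 52.5 CPM (counts scaled with TMM factors so that libraries of unequal depth can be compared) in WT libraries and 20 and 13.1 CPM in *Tet2/3* DKO libraries. By edgeR's quasi-likelihood test *Tet3* was called lower at an adjusted p under 0.01, and *Tet2* was not called. The call of *Tet3* was lost without WT replicate 2 (adjusted p = 0.0154) or WT replicate 3 (adjusted p = 0.0144). In 2 libraries the reads went against the sex label: WT replicate 1 is labelled female but had 0 *Xist* reads and 6821 reads on 4 Y-linked genes, while *Tet2/3* DKO replicate 1 is labelled male but had 744 *Xist* reads and 7 Y-linked reads. The study's methods give all the mice as male, which only the reads of *Tet2/3* DKO replicate 1 go against. That library also had the highest share of reads on no annotated feature, 5.7% against 3.51% to 3.72% in the other libraries. Results are therefore given with and without it for the called members and for several other members. The 7 defining genes of CD4 T cells summed to between 9662 and 10210 CPM in WT libraries and to 9400 and 8245 CPM in *Tet2/3* DKO libraries, and 2 of them were called lower. Other cells' markers differed with genotype: 5 γδ T cell genes summed to between 24.3 and 26.5 CPM in WT and to 189 and 299 CPM in *Tet2/3* DKO libraries, 5 NK or NKT genes to between 7.2 and 9.36 CPM and to 36.5 and 70.2 CPM, 6 myeloid genes to between 10 and 18.1 CPM and to 28.8 and 56.3 CPM, and 6 double-positive thymocyte genes to between 86.9 and 96.3 CPM and to 48 and 49.9 CPM. Thymic epithelial genes summed to 34 CPM in *Tet2/3* DKO replicate 2 and to between 10.6 and 13.3 CPM in the other libraries. Of that sum *Epcam*, an epithelial adhesion molecule, made up 33.8 CPM in replicate 2, whereas the other 2 tested genes, *Krt8* and *Psmb11*, were below all WT libraries in both *Tet2/3* DKO libraries, and 0 of the 3 passed the threshold. By edgeR's quasi-likelihood test 3 of the 5 γδ genes and 4 of the 5 NK or NKT genes rose, while *Sox13*, a γδ lineage factor, was below all WT libraries (log2 fold change -2.12, adjusted p = 0.0361). Of the tested myeloid genes 0 of 5 passed the threshold, although both *Tet2/3* DKO libraries were above all WT libraries for 4 of them. Of the 3 tested double-positive genes *Cd8b1* fell (log2 fold change -1.29, adjusted p = 0.000168), while *Dntt* was below all WT libraries and *Cd8a* above them, with log2 fold changes of -0.53 and 0.94 that did not pass the threshold. Of all these lists *Rag1* alone was at 0 in all libraries. In bulk RNA, fewer cells of a type and less RNA per cell cannot be told apart, and the part of such cells in the values below was not tested.

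Wild type CD4 SP cells expressed every step of glycolysis, with very unequal levels between isozymes. On a per-length scale (CPM per kb of exon), *Ldha*, the lactate dehydrogenase subunit that favours lactate formation, was the highest member, with 961 ± 62.1 (SD, n = 3) in WT cells against 904 ± 115 (SD, n = 2) for *Tet2/3* DKO, and lay at the 99.8th percentile of all tested genes in WT. The next in order were *Eno1*, enolase, with 468 ± 20.3, and *Pkm*, pyruvate kinase, with 307 ± 1.64 in WT. *Gapdh* (185 ± 9.89), *Aldoa* (184 ± 6.04), *Sdha* (173 ± 9.24) and *Ldhb* (167 ± 28.9) followed, and neighbours in this order did not differ beyond their spread. Exon length is the union over all annotated transcripts of a gene, for example 3310 bases for *Ldha* and 1570 for *Ldhb*. The order of the members therefore depends on the annotation. The lowest member was *Hk2*, the inducible hexokinase, with 0.0965 ± 0.0292, at the 3.79th percentile, and *Rptor* and *Mtor* were next with 0.684 ± 0.0672 and 1.25 ± 0.234. Together the 37 genes took up between 1.25% and 1.29% of the reads in WT libraries, 1.15% in *Tet2/3* DKO replicate 1 and 1.33% in replicate 2, and most of this came from the 16 glycolytic genes, with between 0.993% and 1.01% in WT against 0.894% and 1.03% in *Tet2/3* DKO libraries. These shares did not separate the genotypes, since the *Tet2/3* DKO libraries lay on either side of the WT range.

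The comparison of *Tet2/3* DKO with WT cells asks whether the metabolic transcripts change in CD4 SP cells that lack TET2 and TET3. *Ldhb*, the lactate dehydrogenase subunit that favours the conversion of lactate to pyruvate, and *Idh2*, the mitochondrial isocitrate dehydrogenase that makes 2-oxoglutarate with NADP+, fell in *Tet2/3* DKO cells. No other member passed the threshold (edgeR's quasi-likelihood test, Benjamini-Hochberg adjusted p under 0.01 over 13525 genes). Thus 2 of 37 members were lower and 0 were higher, against 1.5% of all tested genes lower, 2.42% higher and 3.92% in either direction. At an unadjusted p under 0.05 there were 11 members, against 23% of all tested genes, and at an adjusted p under 0.05 there were 3, with *Aldoa* added, against 8.67% of all tested genes. DESeq2, which the study used, called 4 members at 0.01, *Ldhb* and *Idh2* lower and *Aldoa* and *Tpi1* higher, against 6.91% of the genes it tested. The median log2 fold change was 0.04 over the 37 members, 0.06 over the 16 glycolytic genes and 0.01 over all tested genes. Both *Tet2/3* DKO libraries lay above all WT libraries for 7 members, against 19.6% of all tested genes, and below them for 8 members, against 19.5%, while 22 members overlapped. With 2 *Tet2/3* DKO libraries the intervals were wide for most members, so that a p that misses the threshold leaves differences of the size of the intervals undetected.

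**Figure D1:**
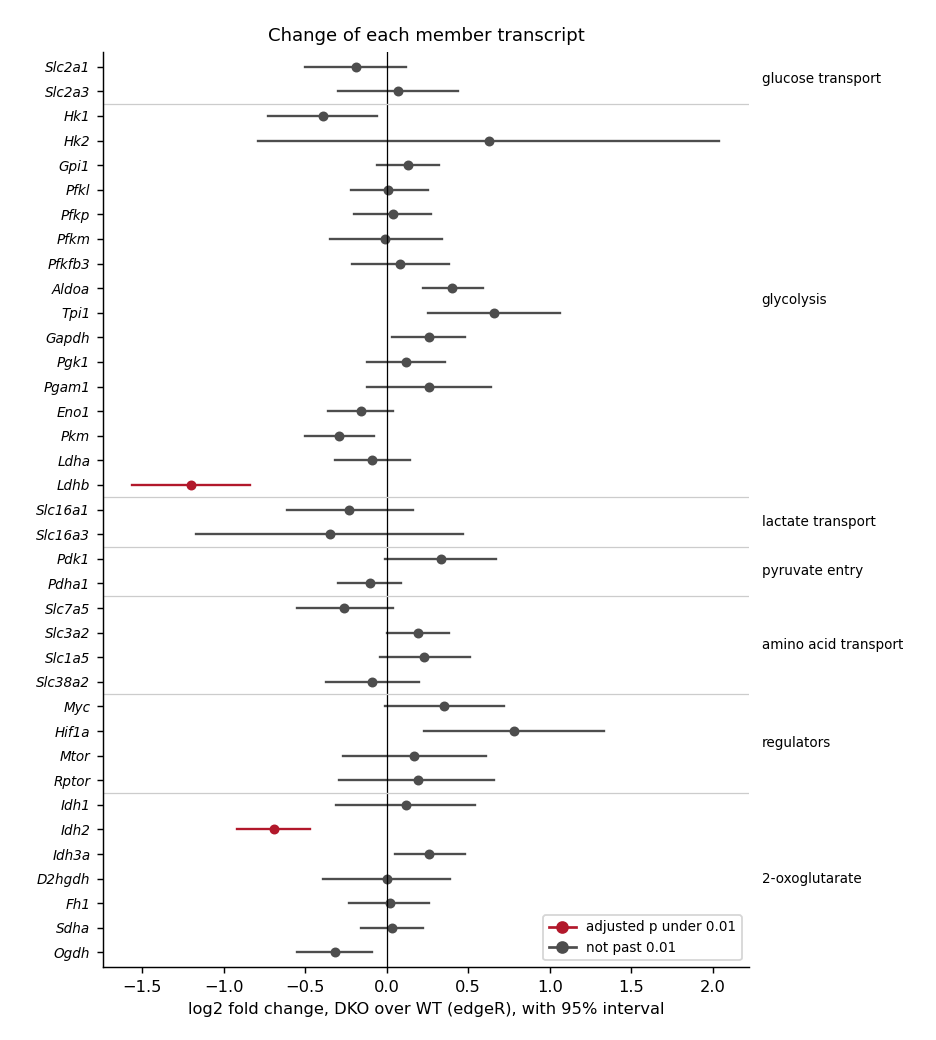
Log2 fold change of each of the 37 members (*Tet2/3* DKO over WT, horizontal axis) from edgeR's quasi-likelihood fit over 3 WT and 2 *Tet2/3* DKO libraries, with lines for the 95% interval and genes grouped by role. *Ldhb* at -1.20 and *Idh2* at -0.69 are the members past an adjusted p of 0.01, and most other intervals include 0.

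*Ldhb* (ENSMUSG00000030246, chromosome 6 of GRCm38 from 142490249 to 142507957) had 255, 219.9 and 310.0 CPM in WT replicates 1, 2 and 3 and 127 and 101 CPM in *Tet2/3* DKO replicates 1 and 2. Both *Tet2/3* DKO libraries were well below the lowest WT library, and replicate 2 was the lower of the pair. *Ldhb* fell to 0.436 times its WT level, or by 1.20 on the log2 scale (SE 0.16, 95% interval -1.56 to -0.84, adjusted p = 0.00196 in edgeR's quasi-likelihood test). When each library was left out in turn the log2 fold change stayed between -1.38 and -1.06, and the call was lost without WT replicate 1 (adjusted p = 0.0131) or WT replicate 3 (adjusted p = 0.0129). Of the 50-base words of *Ldhb* transcripts, 21% also occur in the annotated copy Gm5514, and reads that fall wholly in them map to more than one place and were not counted. Gm5514 itself had 54, 29 and 51 reads in WT and 9 and 13 reads in *Tet2/3* DKO libraries, so it was far below *Ldhb* in each library.

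*Idh2* (ENSMUSG00000030541, chromosome 7 of GRCm38 from 80094846 to 80115392) had 317, 299.6 and 288 CPM in WT replicates 1, 2 and 3 and 202 and 171 CPM in *Tet2/3* DKO replicates 1 and 2. The WT libraries were close to each other, and both *Tet2/3* DKO libraries were lower than all of them. *Idh2* fell to 0.619 times its WT level, or by 0.69 on the log2 scale (SE 0.10, 95% interval -0.92 to -0.47, adjusted p = 0.00292 in edgeR's quasi-likelihood test). The log2 fold change stayed between -0.82 and -0.59 when single libraries were left out. The call was lost without WT replicate 1 (adjusted p = 0.0262), 2 (0.0237) or 3 (0.0195), each of which leaves 2 libraries per genotype. No 50-base word of *Idh2* occurs in another annotated gene. *Ldhb* and *Idh2* both fell also without *Tet2/3* DKO replicate 1, the library that goes against its sex label, with adjusted p = 8.79e-06 and 4.87e-05, and without replicate 2, with adjusted p = 0.000215 and 0.00134. Each of these fits holds a lone *Tet2/3* DKO library, which is assumed to vary like the WT libraries.

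The promoter windows of both genes that fell are shown with that of *Tpi1*, a member whose *Tet2/3* DKO libraries were both higher, because TET enzymes act on cytosine in CpG and the windows let its density be compared. Each runs from 250 bases before to 50 bases after the transcription start on the gene's strand, from RefSeq (GRCm38.p6), with every CpG in capitals. The window of *Ldhb* is at chr6:142507908-142508207 on the minus strand and holds 17 CpG. That of *Idh2* is at chr7:80115301-80115600 on the minus strand and holds 20 CpG, and that of *Tpi1* is at chr6:124814109-124814408 on the minus strand and holds 15 CpG.
Ldhb: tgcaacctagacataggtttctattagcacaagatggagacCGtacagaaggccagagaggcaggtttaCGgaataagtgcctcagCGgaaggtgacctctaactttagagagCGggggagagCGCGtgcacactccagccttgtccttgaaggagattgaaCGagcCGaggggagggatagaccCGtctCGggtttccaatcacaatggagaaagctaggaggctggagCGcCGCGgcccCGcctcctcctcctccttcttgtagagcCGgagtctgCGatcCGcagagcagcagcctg
Idh2: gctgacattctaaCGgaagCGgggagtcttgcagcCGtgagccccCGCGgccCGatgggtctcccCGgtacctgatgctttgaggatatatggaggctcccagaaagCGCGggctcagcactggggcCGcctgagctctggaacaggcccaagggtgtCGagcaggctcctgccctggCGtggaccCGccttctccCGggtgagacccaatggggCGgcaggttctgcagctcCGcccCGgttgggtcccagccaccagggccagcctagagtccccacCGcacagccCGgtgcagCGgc
Tpi1: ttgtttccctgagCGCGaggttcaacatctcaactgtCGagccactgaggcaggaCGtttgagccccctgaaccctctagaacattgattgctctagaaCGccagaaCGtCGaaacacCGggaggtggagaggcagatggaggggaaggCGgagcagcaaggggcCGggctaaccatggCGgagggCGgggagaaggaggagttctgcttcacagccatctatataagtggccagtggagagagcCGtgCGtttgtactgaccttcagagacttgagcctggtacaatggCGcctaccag
By this count the promoters of the genes that fell and of *Tpi1*, which did not pass the threshold, are of like CpG density. With 3 windows this is a description only, and whether CpG density bears on the changes was not tested. DNA methylation of these windows was not analysed here. RefSeq windows were matched for 32 of the 37 members, which have 50 windows in all, with a median of 21 CpG and a range of 0 to 42, against a median of 7 over the 32851 windows of all genes. The E-box CACGTG, the motif that MYC and MAX bind, was present in 8 member windows, or 16%, and in 7.15% of all windows. The core of the hypoxia response element, ACGTG, was present on either strand in 26 member windows, or 52%, and in 19.6% of all windows. Windows of 1 gene can overlap and are counted separately: *Ogdh* alone gave 3 of the 8 windows with CACGTG and 6 of the 26 with ACGTG. Counted by gene, with a match in any window, CACGTG was present in 6 of 32 members (18.8%) and in 8.09% of all 27025 genes, and ACGTG in 18 members (56.2%) and in 21.8% of all genes. The members have more windows per gene than all genes do. Every CACGTG also holds ACGTG, both hold a CpG, and the shares were not compared at equal CpG content. The windows of *Ldhb*, *Idh2* and *Tpi1* hold neither set of letters.

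**Figure D2:**
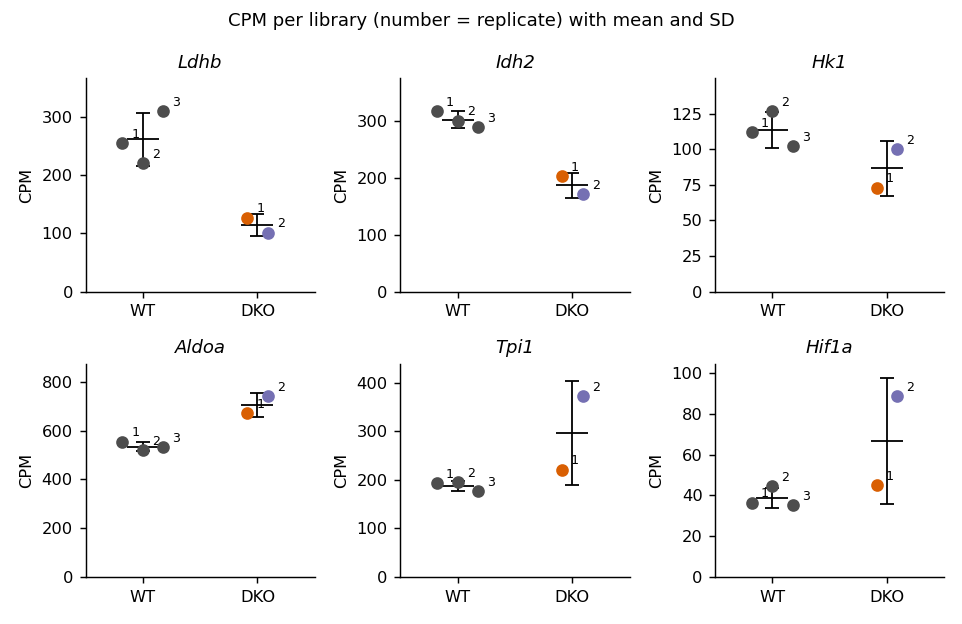
CPM of 6 members in each library (points, numbered by replicate; WT in grey, *Tet2/3* DKO replicate 1 in orange and replicate 2 in violet), with the mean and SD of each genotype as bars and the vertical axes starting at 0. *Ldhb* and *Idh2* are lower in both *Tet2/3* DKO libraries, whereas for *Tpi1* and *Hif1a* replicate 2, at 372 and 88.7 CPM, stands far above replicate 1, at 221 and 45 CPM.

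Glucose enters T cells through facilitative transporters. *Slc2a1*, the basal transporter GLUT1, had between 35.5 and 42.7 CPM in WT libraries and 30.7 and 37.5 CPM in *Tet2/3* DKO libraries. *Slc2a3*, the high-affinity transporter GLUT3, had between 20.4 and 28.8 CPM in WT and 25 and 27.9 CPM in *Tet2/3* DKO libraries. The libraries of both genes overlapped, with log2 fold changes of -0.19 (95% interval -0.50 to 0.12) and 0.07 (95% interval -0.30 to 0.44). Hexokinase, which traps glucose by phosphorylation, was almost wholly *Hk1*, with 112, 127 and 102 CPM in WT and 73.1 and 100.1 CPM in *Tet2/3* DKO libraries. Both *Tet2/3* DKO libraries were below the WT libraries, and replicate 2 only narrowly so. On the log2 scale the difference was -0.39 (SE 0.15, adjusted p = 0.144 by edgeR's quasi-likelihood test). It was -0.65 without *Tet2/3* DKO replicate 2 (adjusted p = 0.00389) and -0.18 without replicate 1 (adjusted p = 0.446). *Hk2* had between 0.421 and 0.765 CPM in WT and 0.334 and 1.57 CPM in *Tet2/3* DKO libraries, so that the latter lay on either side of the WT range and the interval of the log2 fold change ran from -0.79 to 2.04.

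In the next steps of glycolysis, *Gpi1*, glucose-6-phosphate isomerase, had 288, 314 and 284 CPM in WT and 316 and 330.1 CPM in *Tet2/3* DKO libraries. Both *Tet2/3* DKO values were above the WT values but by little (log2 fold change 0.13, 95% interval -0.06 to 0.32, adjusted p = 0.418). The phosphofructokinase genes *Pfkl*, *Pfkp* and *Pfkm*, which encode the committed step, had log2 fold changes of 0.01, 0.04 and -0.01, and their *Tet2/3* DKO libraries overlapped the WT libraries. *Pfkfb3*, which makes the activator fructose 2,6-bisphosphate, had between 19.4 and 21.1 CPM in WT and 20.9 and 21.7 CPM in *Tet2/3* DKO libraries. The 95% intervals of these 4 genes all lay between -0.35 and 0.38 on the log2 scale.

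*Aldoa*, aldolase, had 554, 519 and 532 CPM in WT replicates 1, 2 and 3 and 672 and 741 CPM in *Tet2/3* DKO replicates 1 and 2. Both *Tet2/3* DKO libraries were above all WT libraries. The difference was 0.40 on the log2 scale (SE 0.08, 95% interval 0.22 to 0.59), and its adjusted p of 0.0164 in edgeR's quasi-likelihood test lay just outside the threshold, whereas DESeq2 gave 0.000298. Without *Tet2/3* DKO replicate 1 it was 0.47 (adjusted p = 0.00239), and without replicate 2 it was 0.31 (adjusted p = 0.0349). *Tpi1*, triose phosphate isomerase, acts on the products of aldolase. It had 193, 195 and 176 CPM in WT and 221 and 372 CPM in *Tet2/3* DKO libraries. Both *Tet2/3* DKO libraries were above the WT libraries, with replicate 2 much the higher. On the log2 scale the difference was 0.66 (SE 0.18, adjusted p = 0.0554 in edgeR's quasi-likelihood test and 0.007 in DESeq2). It rested on replicate 2: without replicate 1 it was 0.98 (adjusted p = 2.45e-06), and without replicate 2 it was 0.22 (adjusted p = 0.187).

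*Gapdh*, the dehydrogenase that follows, had 727, 808 and 762 CPM in WT and 828 and 1000.2 CPM in *Tet2/3* DKO libraries. Again both *Tet2/3* DKO values were above the WT values and replicate 2 was the higher (log2 fold change 0.26, SE 0.10, adjusted p = 0.16). Without replicate 1 it was 0.38 (adjusted p = 0.0119) and without replicate 2 it was 0.10 (adjusted p = 0.56). *Pgk1*, which makes the first ATP of glycolysis, had between 129 and 141 CPM in WT and 134 and 163 CPM in *Tet2/3* DKO libraries. *Pgam1*, phosphoglycerate mutase, had between 31.9 and 35.2 CPM in WT and 32.1 and 48.6 CPM in *Tet2/3* DKO libraries. Only replicate 2 of the *Tet2/3* DKO libraries was above the WT range for *Pgk1* and *Pgam1*. These counts understate the true levels, because reads shared with processed copies were left out: 53.9% of the 50-base words of *Pgk1*, 36.2% of those of *Pgam1* and 25.1% of those of *Gapdh* occur in other annotated genes.

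For enolase, *Eno1* had 2579.8, 2394 and 2585 CPM in WT and 2389 and 2124 CPM in *Tet2/3* DKO libraries, with both *Tet2/3* DKO values below the WT values and replicate 1 only just so (log2 fold change -0.16, 95% interval -0.36 to 0.04, adjusted p = 0.323). *Pkm* had 1534, 1543 and 1526 CPM in WT and 1139 and 1374 CPM in *Tet2/3* DKO libraries. The WT libraries were almost equal and both *Tet2/3* DKO libraries were lower, replicate 1 more so. The difference of *Pkm* was -0.29 on the log2 scale (SE 0.09, adjusted p = 0.101 by edgeR's quasi-likelihood test). It was -0.44 without replicate 2 (adjusted p = 0.00333) and -0.16 without replicate 1 (adjusted p = 0.315). Other annotated genes share 26% of the 50-base words of *Eno1* and 25.8% of those of *Pkm*. Exons of other genes overlap 15.3% of the exon bases of *Pkm*, so part of its shared words can come from this overlap. *Ldha* had 3384, 3183 and 2973 CPM in WT and 2722 and 3260.2 CPM in *Tet2/3* DKO libraries, which overlapped (log2 fold change -0.09, 95% interval -0.32 to 0.14). *Ldha* and *Ldhb* encode subunits of the same tetramer, and of these *Ldhb* alone passed the threshold; the difference between their changes was not tested.

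Lactate leaves and enters cells through monocarboxylate transporters. *Slc16a1*, MCT1, had between 41.3 and 63.3 CPM in WT and 44.3 and 42.9 CPM in *Tet2/3* DKO libraries. *Slc16a3*, MCT4, which serves export in glycolytic cells, had 7.47, 9.82 and 8.89 CPM in WT and 3.58 and 10.5 CPM in *Tet2/3* DKO libraries. Here the *Tet2/3* DKO libraries lay on opposite sides of the WT range, and *Slc16a3* differed by -1.30 on the log2 scale without replicate 2 (adjusted p = 0.00429) and by 0.26 without replicate 1 (adjusted p = 0.537). Pyruvate enters the citric acid cycle through pyruvate dehydrogenase. Its catalytic subunit gene *Pdha1* had 152, 162 and 156 CPM in WT and 142 and 150.3 CPM in *Tet2/3* DKO libraries, both lower by less than the interval could resolve (log2 fold change -0.10, 95% interval -0.30 to 0.09). *Pdk1*, the kinase that inhibits the enzyme, had between 136 and 192 CPM in WT and 188 and 234 CPM in *Tet2/3* DKO libraries, which overlapped (log2 fold change 0.33, 95% interval -0.01 to 0.67).

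Amino acid transporters feed protein synthesis, mTOR signalling and, through glutamine, the 2-oxoglutarate pool. *Slc7a5* and *Slc3a2* encode the light and heavy chains of one exchanger for large neutral amino acids. *Slc7a5* had 31.5, 37.9 and 32.2 CPM in WT and 27.4 and 29.3 CPM in *Tet2/3* DKO libraries (log2 fold change -0.26, SE 0.13, adjusted p = 0.288). *Slc3a2* had 239, 233 and 237 CPM in WT and 282 and 256 CPM in *Tet2/3* DKO libraries (log2 fold change 0.19, SE 0.08, adjusted p = 0.215). Thus the *Tet2/3* DKO libraries were all below WT for the light chain and all above WT for the heavy chain, and neither passed the threshold. *Slc1a5*, a glutamine transporter, had between 198 and 209 CPM in WT and 203 and 273 CPM in *Tet2/3* DKO libraries, and its log2 difference from WT was 0.43 without replicate 1 (adjusted p = 0.00831) and -0.01 without replicate 2 (adjusted p = 0.965). *Slc38a2*, which takes up small neutral amino acids, had between 48.4 and 54.2 CPM in WT and 54.5 and 43.4 CPM in *Tet2/3* DKO libraries.

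Of the regulators, *Hif1a*, the oxygen-sensitive subunit of HIF-1, had 36.4, 44.6 and 35.3 CPM in WT and 45 and 88.7 CPM in *Tet2/3* DKO libraries. Replicate 1 was level with the highest WT library and replicate 2 was far above it. On the log2 scale the difference was 0.78 (SE 0.24, adjusted p = 0.0851 by edgeR's quasi-likelihood test), 1.19 without replicate 1 (adjusted p = 7.06e-06) and 0.20 without replicate 2 (adjusted p = 0.414). *Myc*, a driver of nutrient uptake and growth, had 121, 128 and 157 CPM in WT and 142 and 205 CPM in *Tet2/3* DKO libraries. Replicate 1 was within the WT range and replicate 2 above it, and the log2 difference from WT was 0.35 with both (adjusted p = 0.236), 0.60 without replicate 1 (adjusted p = 0.00424) and 0.05 without replicate 2 (adjusted p = 0.854). *Mtor*, the growth kinase, and *Rptor*, the scaffold of its complex 1, overlapped between genotypes, with log2 fold changes of 0.17 (95% interval -0.27 to 0.61) and 0.19 (95% interval -0.29 to 0.66).

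Of the genes around 2-oxoglutarate, *Idh3a* encodes the catalytic subunit of the NAD+-dependent isocitrate dehydrogenase of the cycle. It had 199, 194 and 181 CPM in WT and 214 and 246 CPM in *Tet2/3* DKO libraries, all above WT (log2 fold change 0.26, SE 0.09, adjusted p = 0.131). *Ogdh*, the dehydrogenase that turns 2-oxoglutarate into succinyl-CoA, had 185, 208 and 188 CPM in WT and 144 and 167 CPM in *Tet2/3* DKO libraries, all below WT (log2 fold change -0.32, SE 0.10, adjusted p = 0.0931). Neither passed the threshold, unlike *Idh2*, and the differences between these changes were not tested. Without *Tet2/3* DKO replicate 1 the log2 fold change was 0.36 for *Idh3a* and -0.22 for *Ogdh*. Without replicate 2 it was 0.14 for *Idh3a* and -0.44 for *Ogdh*. *Idh1*, the cytosolic counterpart of *Idh2*, had between 7.8 and 9.82 CPM in WT and 9.44 and 10.2 CPM in *Tet2/3* DKO libraries. *D2hgdh*, which clears D-2-hydroxyglutarate, had between 12.7 and 17.4 CPM in WT and 15.5 and 14.8 CPM in *Tet2/3* DKO libraries. *Sdha* and *Fh1*, which consume succinate and fumarate, had log2 fold changes of 0.03 (95% interval -0.16 to 0.22) and 0.02 (95% interval -0.23 to 0.26). For *Idh1*, *D2hgdh*, *Sdha* and *Fh1* the libraries of the genotypes overlapped.

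Within gene families the per-length level of each isozyme was expressed as a share of the family's genes among the members in each library. These shares depend on union exon lengths, such as 3310 bases for *Ldha* and 1570 for *Ldhb*, and so on the annotation. The same lengths apply to every library. *Ldhb* made up 13.7%, 12.7% and 18% of lactate dehydrogenase transcripts in WT against 8.96% and 6.11% in *Tet2/3* DKO libraries. The ratio of *Ldha* to *Ldhb* was thus 6.3, 6.86 and 4.55 in WT against 10.2 and 15.4 in *Tet2/3* DKO libraries, without overlap. *Idh2* made up 97.3%, 97% and 97.5% of the transcripts of the NADP+-dependent isocitrate dehydrogenases in WT against 95.8% and 94.7% in *Tet2/3* DKO libraries, so that *Idh1* stayed a small minority. *Pfkp* held between 46.6% and 49.6% of phosphofructokinase transcripts in WT against 48.9% and 48.1% in *Tet2/3* DKO libraries. *Pfkl* held between 41.3% and 42.4% of them in WT against 41% and 42%, so that the make-up of this family was alike in all libraries. *Slc16a3* held between 11.3% and 15.2% of the summed level of *Slc16a1* and *Slc16a3* in WT libraries. In *Tet2/3* DKO replicates 1 and 2 it held 6.29% and 16.9%, on either side of the WT range. Other genes of this family were not in the sum. *Slc2a1* held between 73.6% and 79.6% of the 2 glucose transporters in WT against 71.7% and 73.6% in *Tet2/3* DKO libraries. *Hk1* held at least 98.9% of hexokinase transcripts in WT against 99.4% and 97.8% in *Tet2/3* DKO libraries. With 3 against 2 libraries these shares are given as values with no test.

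**Figure D3:**
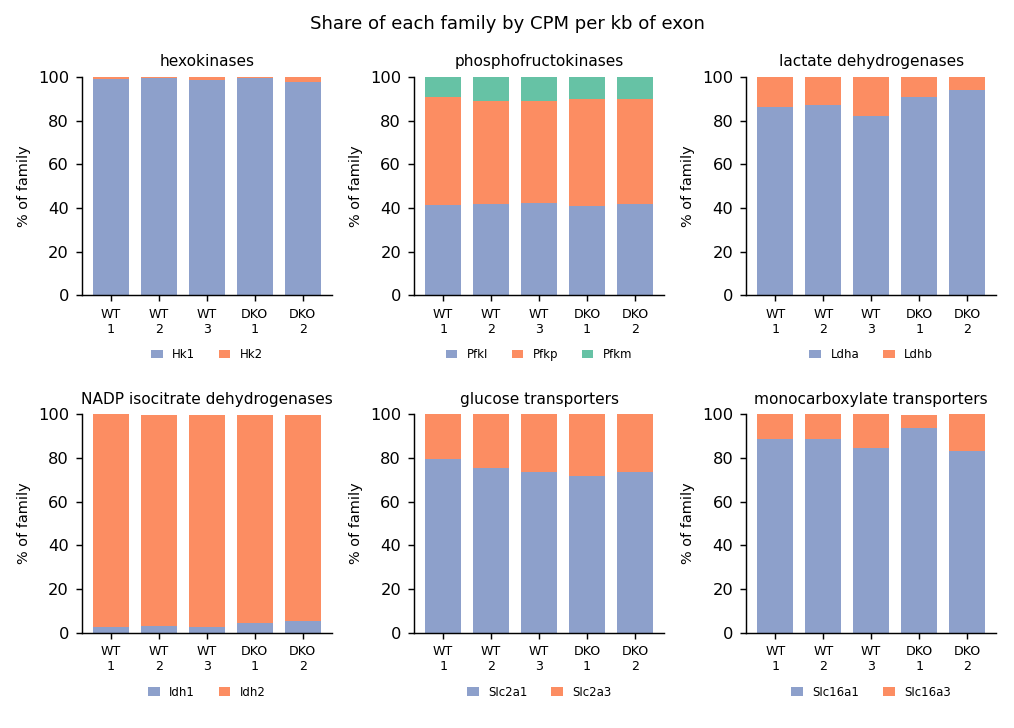
Share of each isozyme in the summed level of its family's genes among the members (percent of CPM per kb of union exon length, vertical axis) in each of the 5 libraries. *Ldhb* shrinks from between 12.7% and 18% of lactate dehydrogenase transcripts in WT to 8.96% and 6.11% in *Tet2/3* DKO libraries, while the shares of the phosphofructokinases differ by at most a few percent of the family.

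The *Tet2/3* DKO libraries differed from each other at these genes more than the WT libraries did. Replicate 2 was above replicate 1 for 28 of 37 members (75.7%), against 49.7% of all tested genes, and the median difference was 0.21 on the log2 scale. Among the 16 glycolytic genes replicate 2 was above replicate 1 for 14, with a median difference of 0.27, and the exceptions were *Eno1* and *Ldhb*. The gap between the *Tet2/3* DKO libraries was larger than the range of the WT libraries for 23 of 37 members (62.2%) and for 47.2% of all tested genes. With replicate 1 left out, 5 members were higher at an adjusted p under 0.01, *Aldoa*, *Tpi1*, *Slc1a5*, *Myc* and *Hif1a*, and 2 were lower, *Ldhb* and *Idh2*, against 6.57% of tested genes higher and 2.56% lower. With replicate 2 left out none were higher and 5 were lower, *Hk1*, *Pkm*, *Ldhb*, *Slc16a3* and *Idh2*, against 4.77% of tested genes higher and 3.22% lower. Thus *Ldhb* and *Idh2* were shared by both *Tet2/3* DKO libraries, whereas the other 8 genes passed the threshold in 1 of these fits and not in the other. Replicate 1 is the library described above whose *Xist* and Y-linked reads go against its male label. It also has the highest share of reads on no feature. Of 24 cell cycle genes, 22 were also higher in replicate 2 than in replicate 1, by a median of 0.56 on the log2 scale, and the summed γδ, NK or NKT and myeloid markers were higher in replicate 2 as well, as were 3 of the 5 single γδ genes. *Epcam* had 10.4 CPM in replicate 1 and 33.8 CPM in replicate 2. The part of proliferation, other cells or sex in the difference between these libraries was not tested.

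**Figure D4:**
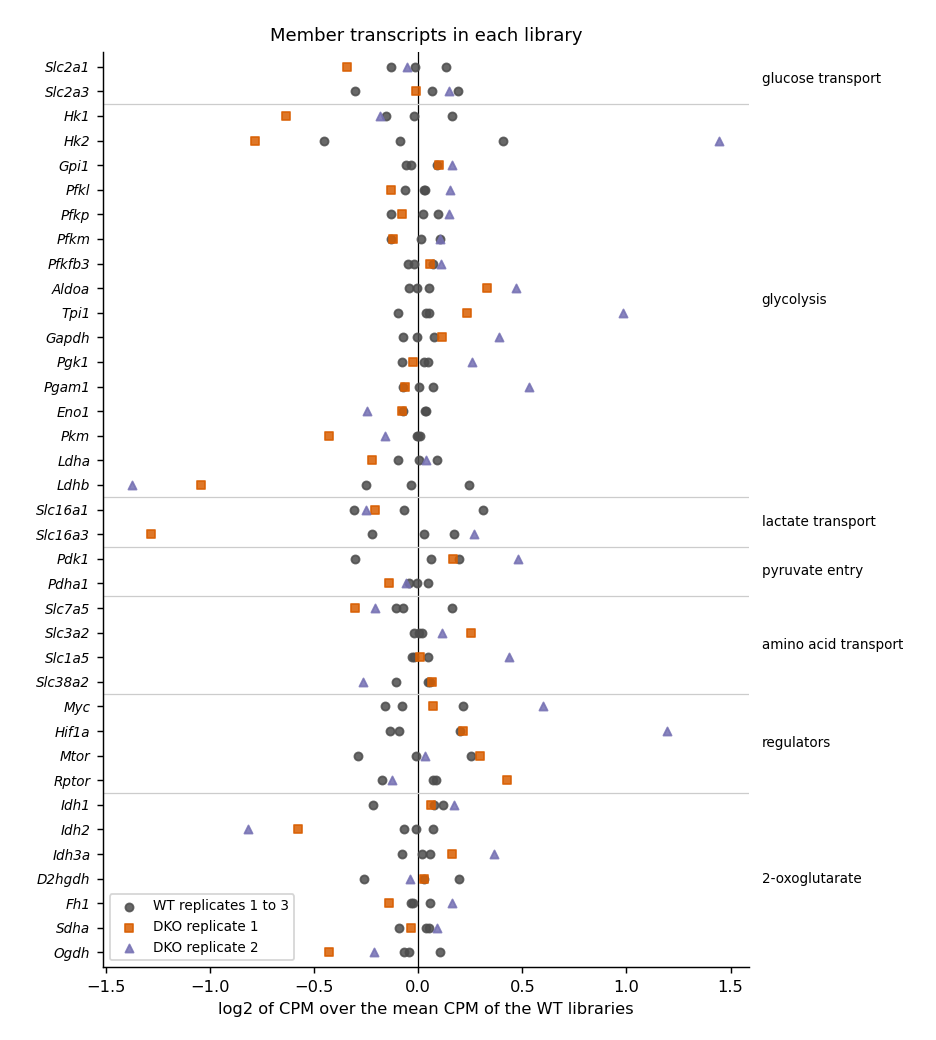
Level of each member in each library as log2 of its CPM over the mean CPM of the WT libraries (horizontal axis), with WT as grey circles, *Tet2/3* DKO replicate 1 as orange squares and replicate 2 as violet triangles. For 28 of 37 members the triangle lies to the right of the square, and for *Ldhb* and *Idh2* both lie far to the left of the WT circles.

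Genes of the same pathways that are not among the 37 were also tested, in lists chosen with earlier results of these data known. Of 13 tested genes of other glycolytic isozymes and side enzymes, 3 fell and 0 rose, against 1.5% of all tested genes lower and 2.42% higher. *Eno3*, the enolase typical of muscle, had 56.5, 53.9 and 61.9 CPM in WT and 26.4 and 24 CPM in *Tet2/3* DKO libraries (log2 fold change -1.19, SE 0.12, adjusted p = 0.00051 in edgeR's quasi-likelihood test). *Bpgm*, which makes 2,3-bisphosphoglycerate, fell with a log2 fold change of -0.62 (adjusted p = 0.00715), and *Ldhd*, the mitochondrial D-lactate dehydrogenase, with -2.38 (adjusted p = 0.00203) from between 6.19 and 7.5 CPM in WT. The calls of *Bpgm* and *Ldhd* were lost when any 1 WT library was left out, with adjusted p up to 0.0514 and 0.0198, whereas that of *Eno3* was kept. *Eno1*, the main enolase of these cells, did not pass the threshold, and the difference between its change and that of *Eno3* was not tested. None of 11 tested genes of pyruvate dehydrogenase and pyruvate import, 7 of the pentose phosphate pathway, 29 of the citric acid cycle and glutamine use, 35 other growth regulators, 12 hypoxia response genes and 24 genes of MYC and ribosome biogenesis passed the threshold at 0.01. At an unadjusted p under 0.05 these lists had 3, 1, 6, 6, 2 and 9 genes, to be read against 23% of all tested genes. For the MYC and ribosome biogenesis genes, both *Tet2/3* DKO libraries lay above all WT libraries for 13 of 24 and below for 0, against 19.6% and 19.5% of all tested genes, and the median log2 fold change was 0.20.

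Of 18 genes of the amino acid response, *Shmt2*, the mitochondrial serine hydroxymethyltransferase, rose (log2 fold change 0.66, adjusted p = 0.00302 in edgeR's quasi-likelihood test) and *Trib3*, a pseudokinase induced by ATF4, fell (log2 fold change -1.52, adjusted p = 0.00329). Of 24 cell cycle genes *Ccnd3*, cyclin D3, fell (log2 fold change -0.67, adjusted p = 0.00509). The calls in this list changed with the *Tet2/3* DKO library left out. Replicate 2 was above replicate 1 for 22 of the 24 genes. Of 17 activation genes, *Icos*, a costimulatory receptor, rose (log2 fold change 1.08, adjusted p = 0.00532) and *Cd5*, an inhibitory coreceptor, fell (log2 fold change -1.28, adjusted p = 8.57e-05). The calls among activation genes changed likewise, and replicate 2 was above replicate 1 for 13 of the 17. Of 15 quiescence genes 4 fell, *Ccr7*, *S1pr1*, *Lef1* and *Tcf7*, with log2 fold changes between -0.65 and -0.56, and none rose. These counts stand against 1.5% of all tested genes called lower and 2.42% called higher. The calls of *Shmt2*, *Trib3*, *Ccnd3*, *Icos* and the 4 quiescence genes were lost when any 1 WT library was left out, with adjusted p up to 0.0226, 0.0297, 0.0372 and 0.0537 for the first genes and up to 0.0478 for the quiescence genes. Of the 11 copies of glycolytic genes that were matched, 3 passed the filter on low counts and none passed the threshold.

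**Figure D5:**
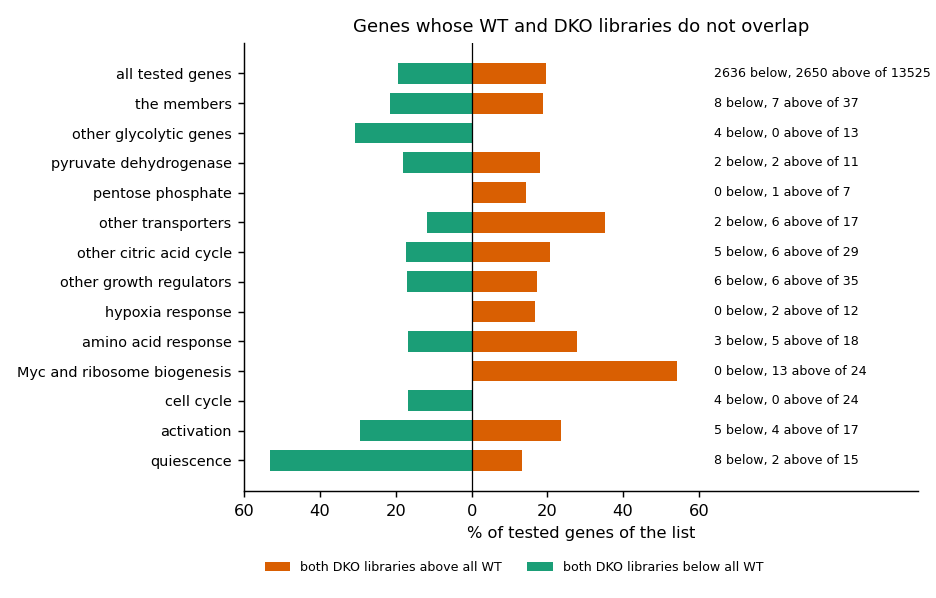
Share of the tested genes of each list (horizontal axis, percent) for which both *Tet2/3* DKO libraries lay above all WT libraries (orange, to the right) or below them (green, to the left), with the counts printed at the right. The members, with 7 above and 8 below of 37, are close to all tested genes, whereas the MYC and ribosome biogenesis genes lie to the right with 13 of 24 and the quiescence genes to the left with 8 of 15.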

How the data were processed

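RNA of sorted CD4 SP cells from 3 WT and 2 *Tet2/3* DKO mice was measured, 1 library per mouse. The authors trimmed reads with fastp 0.21.0, aligned them with STAR 2.7.5a to mm10 (GRCm38) and deposited raw counts of uniquely mapped reads per gene, without normalization or pooling. SMART-seq libraries do not mark strand and carry no molecular identifiers, so the unstranded counts were used and reads are not independent molecules. Groups came from the sample labels. GENCODE M21 (GRCm38) gave symbols and exon lengths for 55227 of the 55487 identifiers.

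Counts were tested with edgeR 4.0.16 in R 4.3.3 (TMM scaling, filterByExpr by genotype, quasi-likelihood test with the newer moderation, Benjamini-Hochberg adjustment over 13525 genes, threshold 0.01 as the study used). Standard errors (SE) were taken as |log2 fold change|/√F, and 95% intervals use the moderated degrees of freedom. CPM were scaled with TMM factors and divided by union exon length for levels per kb. The test was tried on simulated counts first. DESeq2 1.42.0, other scalings, no filter, other moderation, a replicate block, a threshold of 0.05 and leaving out each library were alternatives. Depth was 17607089 to 27267031 reads on genes per library.

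Members named with values in every library are those past the threshold or with both *Tet2/3* DKO libraries beyond all WT libraries, besides *Ldha*, *Myc* and *Slc16a3*, chosen after their values were seen. From each other list up to 4 genes past the threshold with the largest change were named. A result of the list of other transporters is not reported here. The members and lists were chosen with earlier results of these data known. Sharing with other genes was counted in words of 50 bases of GENCODE transcripts. Promoter windows came from RefSeq.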

Additional observations from a re-analysis of the deposited data

How the results depend on the processing

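*Ldhb* and *Idh2* remained the members called lower under DESeq2 size factors, library size alone, no filter on low counts, DESeq2, legacy or robust moderation and a replicate block. DESeq2 called 1027 genes and 2 members higher, and a threshold of 0.05 gave 1173 genes and 1 member higher. Leaving out single libraries gave between 110 and 1311 genes, between 0 and 5 members higher and between 0 and 5 lower. The median log2 fold change was then between -0.05 and 0.12 over the members and between -0.09 and 0.15 over the glycolytic genes, with the lowest values without *Tet2/3* DKO replicate 2 and the highest without replicate 1. The cause was not tested. A fit with a lone *Tet2/3* DKO library assumes that it varies like the WT libraries.

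Of 37 members, 22 kept their sign under every alternative run. Of 32 changes of sign, 21 came from leaving out a library and 11 from other alternatives. Without the filter *Pfkl* was -0.0045, *Fh1* -0.00068 and *D2hgdh* -0.02, and *D2hgdh* was -0.00049 with library size alone, -0.01 in DESeq2 and -0.0018 with legacy moderation. With the replicate block *Pfkl* was -0.02, *Pfkp* -0.03, *Pfkm* 0.01, *D2hgdh* -0.11 and *Sdha* -0.02. Leaving out single libraries moved *Slc2a3* between -0.06 and 0.17, *Hk2* between -0.81 and 1.41, *Pfkl* between -0.15 and 0.15, *Pfkp* between -0.10 and 0.15, *Pfkm* between -0.13 and 0.10, *Pgk1* between -0.04 and 0.26, *Pgam1* between -0.08 and 0.53, *Ldha* between -0.24 and 0.03, *Slc16a3* between -1.30 and 0.26, *Slc1a5* between -0.01 and 0.43, *Slc38a2* between -0.27 and 0.05, *Rptor* between -0.13 and 0.41, *D2hgdh* between -0.12 and 0.11, *Fh1* between -0.15 and 0.16 and *Sdha* between -0.05 and 0.09. The cause was not tested.

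WT and *Tet2/3* DKO replicates share only their numbers: deviations of same-numbered libraries from their group means correlated at 0.015 and 0.004 across genes. The replicate block gave 358 genes and changed no call of a member, but *Bpgm*, *Shmt2*, *Trib3*, *Lef1* and *Tcf7* were not past the threshold under it (adjusted p between 0.0106 and 0.0256). With robust moderation *Icos* was not (adjusted p = 0.0306). With 2 *Tet2/3* DKO libraries small differences could not be resolved, and *Hk2* rests on between 7 and 28 reads per library.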
